A study of Mus musculus with 5 samples.

Results

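Elongating spermatids, the haploid male germ cells that are turning into sperm, were taken as the droplet barcodes in which the 4 genes Prm1, Prm2, Tnp1 and Tnp2 made up at least 5% of all unique molecular identifiers (UMIs, the counted RNA molecules). A barcode also needed at least 1000 UMIs and under 20% of them from mitochondrial genes. The rule found 917 of 11475 passing barcodes in the 763.2 h library (7.99%, 95% exact binomial interval 7.502 to 8.503) and 964 of 8739 in the 556.8 h library (11.0%, 10.4 to 11.7), 1881 in all among the 46451 barcodes of the series. The series holds 5 droplet libraries of mouse whole testis, 1 each at 0, 144, 350.4, 556.8 and 763.2 h, and per its design text spermatogenesis had been synchronized and each time falls when the tubules were back at stages VIII to IX of their cycle. All samples shared that synchronization. They were freed from the tubules with collagenase, DNase and trypsin, and the labels used here give neither strain, genotype, age nor number of animals. With 1 library a time, time, library and animals cannot be told apart, cells of 1 library are not replicates, and no test was made: each difference describes these libraries, and its interval covers counting error only.

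In the mouse, the round spermatid stops dividing after meiosis and reshapes its nucleus, acrosome and tail. Histones are replaced first by the transition proteins (Tnp1, Tnp2) and then by the protamines (Prm1, Prm2), which pack the DNA of the sperm head. Transcription ends as the chromatin condenses, so later proteins are made from messenger RNAs that were stored beforehand.

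The promoters of the genes that define the class are shown because their transcripts split the spermatids below into 2 states, with that of Hmgb4, an HMG-box gene of spermatids whose RNA moved with the transition proteins. Prm1, Prm2, Prm3 and Tnp2 lie side by side on chromosome 16, with the starts of Prm2, Prm3 and Tnp2 4718, 5909 and 8168 bases from that of Prm1. Tnp1 is on chromosome 1 and Hmgb4 on chromosome 4. The 120 bases before each RefSeq start (build GRCm38.p6, all 6 on the minus strand, 5′ to 3′) are chr16:10796824-10796943, chr16:10792106-10792225, chr16:10790915-10791034, chr16:10788656-10788775, chr1:73015900-73016019 and chr4:128260896-128261015. Capitals mark matches, on either strand, to TGANNTCA, a loose form of the cAMP response element TGACGTCA to which the spermatid regulator CREM is known to bind, and to TATAA, the core of the TATA box.
Prm1: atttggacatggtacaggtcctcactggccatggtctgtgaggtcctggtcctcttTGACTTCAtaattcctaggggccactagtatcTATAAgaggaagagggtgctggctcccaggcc
Prm2: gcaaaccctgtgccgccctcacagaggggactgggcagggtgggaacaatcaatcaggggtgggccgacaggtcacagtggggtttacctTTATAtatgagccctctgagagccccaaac
Prm3: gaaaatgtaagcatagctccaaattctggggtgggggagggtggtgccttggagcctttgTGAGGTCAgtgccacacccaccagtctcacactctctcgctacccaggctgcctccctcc
Tnp2: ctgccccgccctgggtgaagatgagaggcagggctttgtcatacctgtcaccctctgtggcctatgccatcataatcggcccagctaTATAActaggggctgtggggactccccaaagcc
Tnp1: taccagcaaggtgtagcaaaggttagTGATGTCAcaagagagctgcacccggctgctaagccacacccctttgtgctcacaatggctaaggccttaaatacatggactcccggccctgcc
Hmgb4: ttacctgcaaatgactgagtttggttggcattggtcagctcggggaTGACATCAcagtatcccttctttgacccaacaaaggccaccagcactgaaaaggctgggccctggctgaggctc
TGANNTCA began 64 bases before the start of Prm1 (TGACTTCA), 60 before Prm3 (TGAGGTCA), 94 before Tnp1 (TGATGTCA) and 74 before Hmgb4 (TGACATCA). TATAA began 32 bases before Prm1 and 33 before Tnp2, and its reverse complement 30 before Prm2. None of these marked matches overlapped. Among 32851 promoter windows of the same length, 7.14% held TGANNTCA, 1.24% the full TGACGTCA and 11.8% TATAA on either strand. A match describes the letters only.

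The 4 genes that chose the barcodes made up 23.8% of all UMIs of the spermatids at 763.2 h and 17.1% at 556.8 h. Prm1 held 9.42% at 763.2 h and 6.39% at 556.8 h, Prm2 6.94% and 4.01%, Tnp1 3.49% and 2.66%, and Tnp2 4.00% and 4.03%. These barcodes held 12.1% of all UMIs of the 763.2 h library and 13.8% at 556.8 h, but 82.6% and 81.2% of the UMIs of the 4 genes. Prm3, the protamine-like gene of the same cluster, which the rule did not use, made up 0.444% of the UMIs of the spermatids and 0.163% of those of round spermatid barcodes at 763.2 h, and 0.308% and 0.137% at 556.8 h. No member barcode was shared between the 2 libraries.

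The lower limit of the class is not a gap in the data. Of the barcodes just inside it, with 5% to under 6% of UMIs in the 4 genes, there were 73 at 763.2 h and 57 at 556.8 h, and just outside, with 4% to under 5%, 141 and 88. Acrv1, an acrosomal gene of round spermatids, was at 539 CPM (UMIs of the gene in every 1000000 UMIs outside the 4 genes) just inside and 421 CPM just outside at 763.2 h, and at 319 and 327 CPM at 556.8 h. Among spermatids with at least 20% in the 4 genes it was at 28.7 CPM at 763.2 h and 14.8 CPM at 556.8 h. Acrv1 was thus higher near the limit than well above it. The 14 round spermatid markers together were at 2322 CPM in the spermatids at 763.2 h, with Dnajc5b at 990.3 CPM, and at 2864 CPM at 556.8 h, with Tssk1 at 1007 CPM. The share of spermatids by time follows the limits: with at least 5000 UMIs a barcode it was 18.4% at 763.2 h and 11.9% at 556.8 h, the opposite order.

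RNA of the 4 genes was not confined to spermatids. Every passing barcode of both libraries had at least 1 UMI of them. The spermatids had median shares of 22.7% at 763.2 h (lowest 5.003%, highest 38.1%) and 15.1% at 556.8 h (5% to 28.8%), at median depths of 13995 and 7956 UMIs. In barcodes with at least 20 UMIs of Sertoli cell markers, the somatic cells that nurse germ cells, the median share of the 4 genes was 1.99% at 763.2 h and 1.56% at 556.8 h, at median depths of 2818 and 12410 UMIs. Of these 161 and 150 barcodes, 13 and 22 were themselves spermatids by the rule. In the 24 and 22 barcodes with at least 10 UMIs of macrophage markers, 0 of them spermatids by the rule, the median share was 1.19% and 1.06%. Libraries ranged from 7441 to 11987 barcodes over the series. Scrublet, which scores barcodes for 2 cells in 1 droplet, called 0 and 1 barcodes with its own threshold at 763.2 and 556.8 h and so did not work here, and 61 and 35 spermatids had a score of at least 0.25.

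The split into late spermatids, with more protamine than transition protein UMIs, and early ones, with at least as many transition protein UMIs, left almost no early spermatids. At 763.2 h 915 of 917 were late (99.8%, 99.21 to 99.97) and 2 early, and at 556.8 h 960 of 964 were late (99.6%, 98.9 to 99.9) and 4 early. The protamine share of the 4 genes was 47.0% and 50.0% in the 2 early spermatids at 763.2 h and 45.8% to 49.8% in the 4 at 556.8 h, with 3 and 13 spermatids within 2 points of the dividing value of 50%. Late spermatids summed to 10757002 UMIs outside the 4 genes at 763.2 h and 13549481 at 556.8 h, but early ones to 4778 and 11256. A gene was counted as measured with at least 20 UMIs and 20 CPM in the class where it was higher, and as higher or lower at a ratio of at least 2-fold. In late over early spermatids, 141 of 424 genes measured at 763.2 h were higher (33.3%) and 2 lower (0.472%), and at 556.8 h 247 of 934 were higher (26.4%) and 10 lower (1.07%). In both libraries together 47 of 302 were higher (15.6%) and 0 lower (0%). A lower gene needed 20 UMIs in the early class, a higher one 20 in the late class. With so few early UMIs this limit favoured higher genes, so the balance of directions is not a result about the spermatids. The 95% interval lay wholly beyond 2-fold for 4 higher genes and 1 lower gene at 763.2 h and for 3 and 4 at 556.8 h, and none met the rule for naming in both libraries, so no gene is named from this split. Between the times, early spermatids had 47 measured genes, of which 4 were higher at 763.2 h (8.51%) and 12 lower (25.5%), and 0 were higher (0%) and 1 lower (2.13%) in both early and late spermatids. The fewer early UMIs at 763.2 h likewise favoured lower genes.

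**Figure D1:**
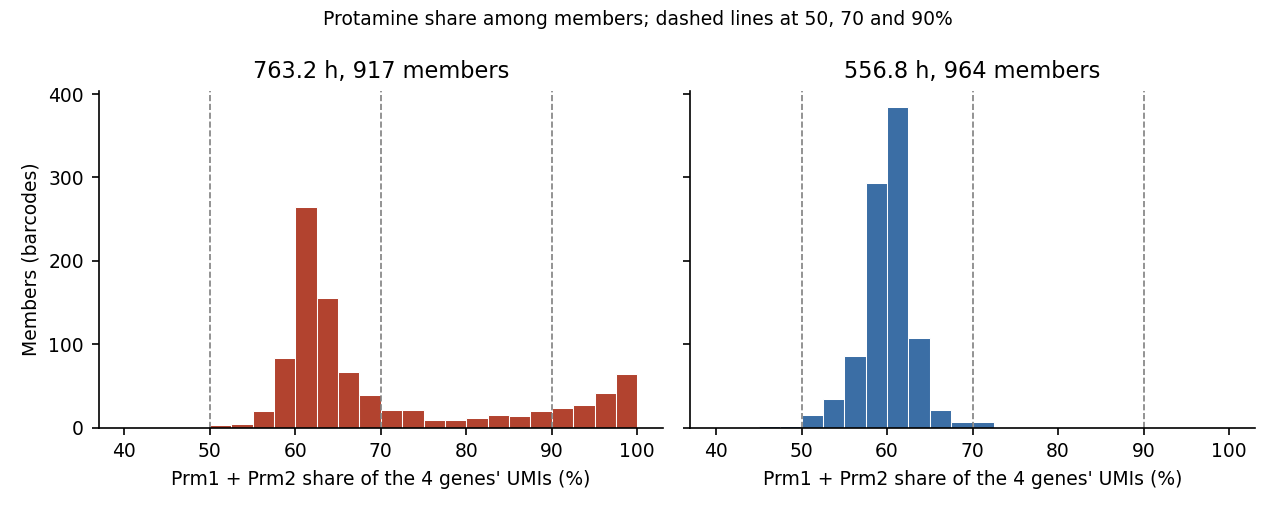
Number of spermatids (members, vertical axis) by the share of protamine UMIs among the UMIs of the 4 genes (horizontal axis, percent), at 763.2 h (917 spermatids) and 556.8 h (964), with dashed lines at 50%, 70% and 90%. Both libraries peak near 60%, and only the 763.2 h library continues to 99.4%, with 158 spermatids at 90% or more.

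The protamine share itself differed between the libraries. Its median was 63.5% at 763.2 h (interquartile range 61.1% to 76.8%, highest 99.4%) and 60.3% at 556.8 h (58.7% to 61.8%, highest 76.2%), as the plot of spermatids by protamine share shows. At 90% or more, where transition protein RNA was low against protamine RNA, lay 158 of 917 spermatids at 763.2 h (17.2%, 14.8 to 19.8) and 0 of 964 at 556.8 h, which allows a share of up to 0.311%. In those 158, Tnp1 made up 0.251% and Tnp2 0.555% of all UMIs, against 0.164% and 0.135% in round spermatid barcodes. At 70% to under 90% lay 121 at 763.2 h and 9 at 556.8 h, and under 70% 638 (69.6%, 66.5 to 72.5) and 955 (99.1%, 98.2 to 99.6). The groups at 90% or more and under 70% are called transition-protein-depleted and transition-protein-rich below. Both bounds were chosen after the distribution was seen, with 38 spermatids within 2 points of 90% at 763.2 h and 45 and 10 within 2 points of 70% at 763.2 and 556.8 h. Depleted spermatids had a median of 11746 UMIs and rich ones 14902 at 763.2 h, and rich ones 8037 at 556.8 h.

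Across the ranges of the protamine share at 763.2 h the 2 protamines parted. Prm2 made up 4.85% of all UMIs in the range of 55% to under 60% and 11.1% at 95% or more. Prm1 made up 6.89% at 55% to under 60%, 12.7% at 70% to under 80% and 8.36% at 95% or more. The ratio of Prm1 to Prm2 UMIs was 0.883 in depleted spermatids (0.877 to 0.888) and 1.46 in rich ones (1.45 to 1.46) at 763.2 h, and 1.59 in all spermatids at 556.8 h. Tnp1 stood highest at 65% to under 70%, with 5.33% of all UMIs, and Tnp2 at 60% to under 65%, with 5.03%. At 95% or more Tnp1 made up 0.129% and Tnp2 0.345%. The ratio of Tnp1 to Tnp2 UMIs was 0.453 in depleted spermatids (0.438 to 0.469), 1.28 at 70% to under 90% (1.26 to 1.29) and 0.850 in rich spermatids (0.847 to 0.853). The protamine share fixes the protamines and transition proteins against each other, so only the order within each pair is free of the rule. Prm3, which is free of it, made up 0.546% of all UMIs of depleted and 0.414% of those of rich spermatids.

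**Figure D2:**
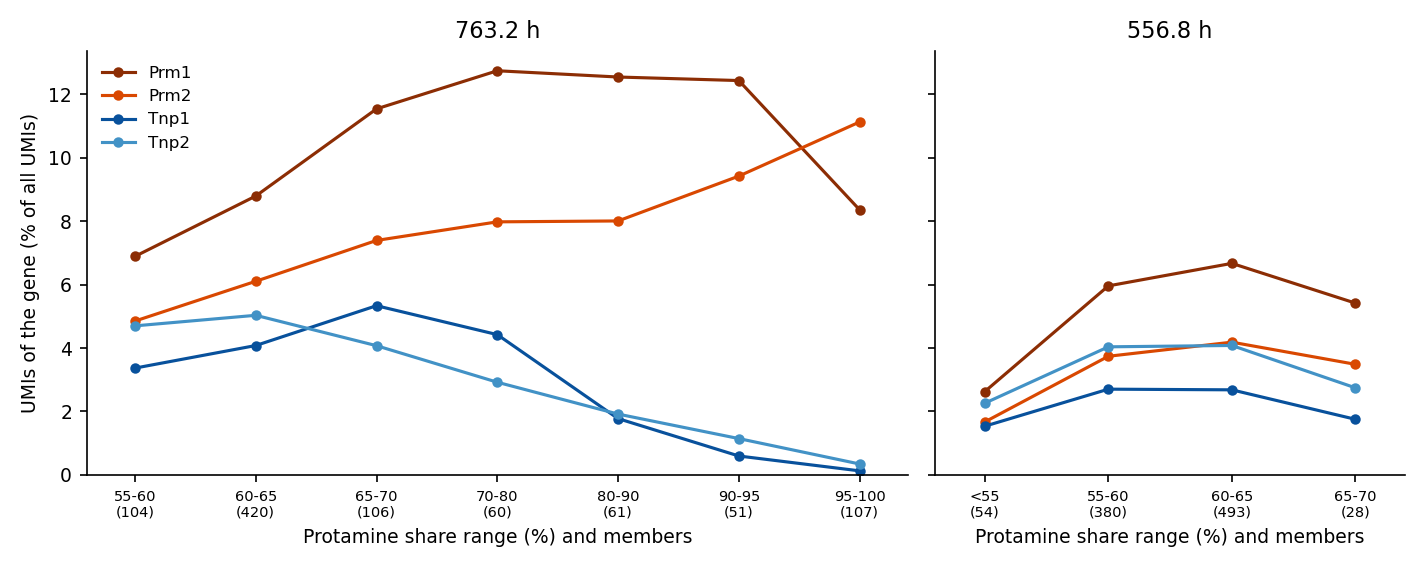
Level of Prm1, Prm2, Tnp1 and Tnp2 (vertical axis, percent of all UMIs) in summed spermatids grouped by protamine share (horizontal axis, percent, with the number of spermatids), at 763.2 h and 556.8 h. Ranges of under 20 spermatids are not drawn, and at 95% or more Prm2 is at 11.1% and Prm1 at 8.36%.

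To see which other RNAs marked elongating spermatids, they were set against round spermatid barcodes of the same library (3119 at 763.2 h and 283 at 556.8 h, median 2894 and 3870 UMIs), chosen by round spermatid markers and by less than 5% of UMIs in the 4 genes. Outside the 4 genes, the RNA of elongating spermatids was more concentrated in the leading genes. The 50 leading genes outside the 4 held 21.7% of UMIs in elongating and 12.6% in round spermatid barcodes at 763.2 h, and 16.4% and 13.0% at 556.8 h. Outside the 4 genes, 766 of 5672 measured genes were at least 2-fold higher in elongating spermatids at 763.2 h (13.5%) and 2948 lower (52%), and at 556.8 h 1077 of 6003 were higher (17.9%) and 2280 lower (38%). In both libraries 688 of 5523 were higher (12.5%) and 2059 lower (37.3%). The median gene stood at a log2 ratio of -1.07 at 763.2 h and -0.63 at 556.8 h. The lists below are read against these values and against the shares of all measured genes that were higher or lower. The markers used to choose the round spermatid barcodes were left out of these counts.

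**Figure D3:**
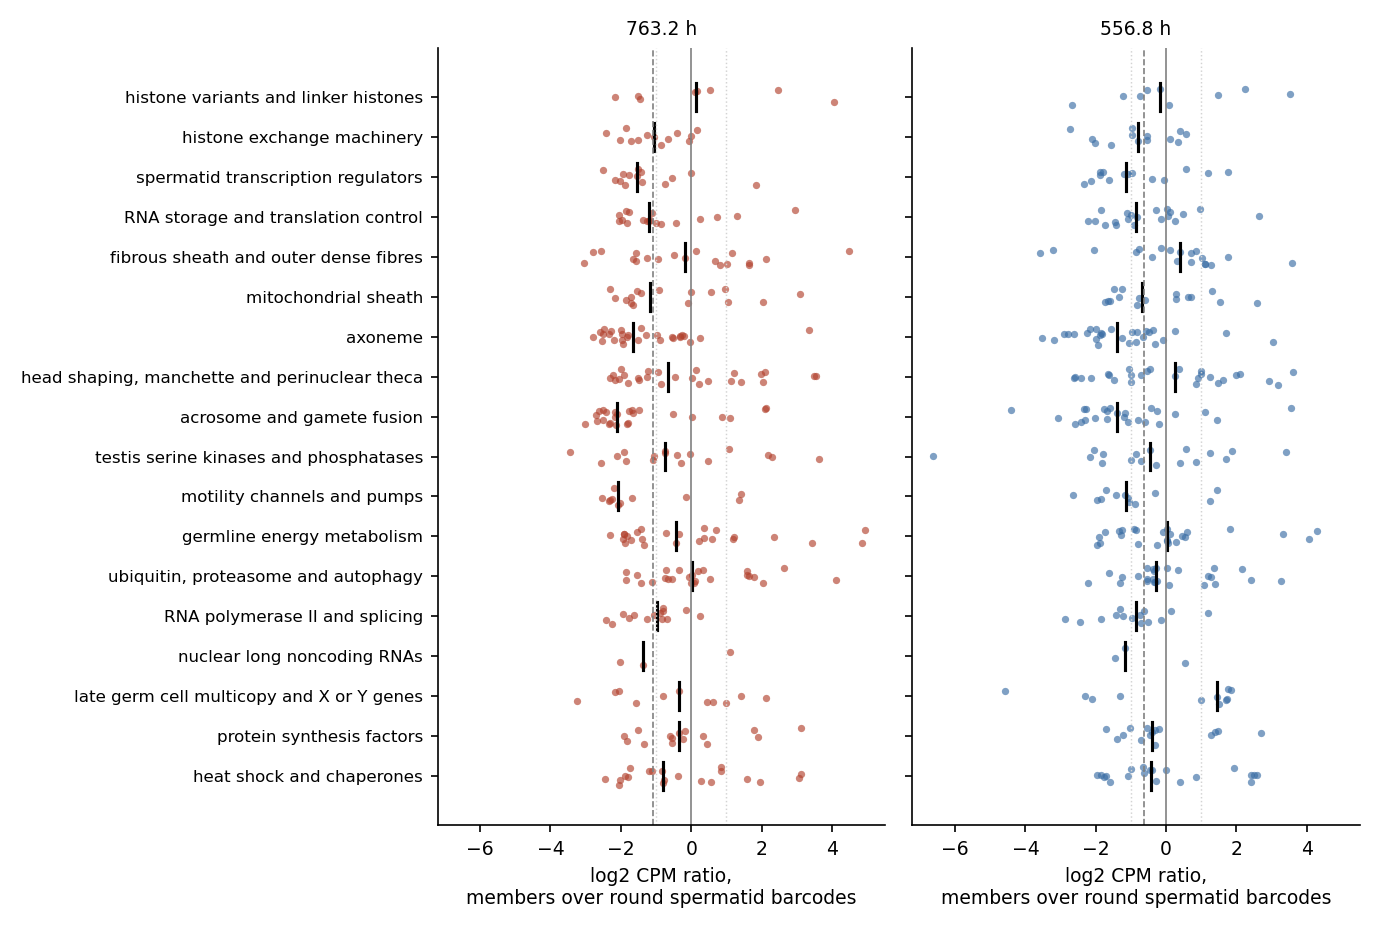
Log2 CPM ratio of elongating (members) over round spermatid barcodes (horizontal axis) of each measured gene (points) of each list (rows), at 763.2 h and 556.8 h. Bars are list medians, the dashed line is the median of all measured genes (-1.07 and -0.63) and dotted lines mark 2-fold. The acrosome and axoneme lists have medians left of the dashed line of their library and the fibrous sheath list right of it. The round spermatid barcodes were chosen in part by acrosomal markers, which favours a lower acrosome list.

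Chromatin genes were mixed. Of the histone variants and linker histones, 2 of 8 measured genes were higher and 3 lower at 763.2 h, and 3 of 9 higher and 2 lower at 556.8 h (median log2 0.14 and -0.16). H1fnt, a linker histone needed for condensation of the sperm nucleus, was at 3075 CPM in elongating and 552 CPM in round spermatid barcodes at 763.2 h (5.58-fold, 5.48 to 5.68), and at 2027 and 426 CPM at 556.8 h (4.76-fold). H2afb1, one of a family of near-identical short H2A histones whose reads may be shared, was at 3208 and 192 CPM at 763.2 h and at 2222 and 194 CPM at 556.8 h. Hils1, a linker-histone-like protein of elongating spermatids, was at 1877 CPM in elongating and 1731 CPM in round spermatid barcodes at 763.2 h (1.08-fold), but at 4097 and 1483 CPM at 556.8 h (2.76-fold). The replacement histone H3f3b was lower in both, with 512 and 2308 CPM at 763.2 h and 315 and 1996 CPM at 556.8 h. Of 13 measured genes of the histone exchange machinery 0 were higher in either library, and 7 and 4 were lower at 763.2 and 556.8 h. Those lower counts were near the shares over all measured genes, 52% and 38%. The list medians, -1.055 and -0.80, were likewise near those of all genes, -1.07 and -0.63.

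Most of the measured transcription regulators were lower. Of 14 spermatid transcription regulators, 1 was higher and 10 lower at 763.2 h, and 2 higher and 8 lower at 556.8 h. Over all measured genes 52% and 38% were lower. Crem, the activator of many spermatid genes, was at 154 CPM in elongating and 569 CPM in round spermatid barcodes at 763.2 h, and at 152 and 559 CPM at 556.8 h. Spz1, a spermatogenic zip protein, was higher in both, with 3055 and 848 CPM at 763.2 h and 1440 and 630 CPM at 556.8 h. Fhl5, a partner of CREM, was at 423 and 426 CPM at 763.2 h, but at 1166 and 347 CPM at 556.8 h (3.36-fold). Of the RNA storage and translation list, 2 of 18 were higher and 11 lower at 763.2 h, and 1 of 20 higher and 8 lower at 556.8 h. Its median log2 ratios, -1.19 and -0.86, were near those of all genes, -1.07 and -0.63. Eif4e, which binds the cap of messenger RNAs, was at 1367 and 176 CPM at 763.2 h (7.77-fold, 7.54 to 8.002) and at 1120 and 181 CPM at 556.8 h. Pabpc1, which binds poly(A) tails, was at 333 CPM in elongating and 1291 CPM in round spermatid barcodes at 763.2 h. Malat1, a nuclear noncoding RNA, was at 465 and 1884 CPM at 763.2 h and at 572 and 1565 CPM at 556.8 h.

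Genes of the tail and its sheaths differed between lists. Over all measured genes 13.5% were higher and 52% lower at 763.2 h, and 17.9% and 38% at 556.8 h. Of 19 genes of the fibrous sheath and outer dense fibres, 6 were higher and 7 lower at 763.2 h and 6 higher and 3 lower at 556.8 h (median log2 -0.19 and 0.40). Odf2, an outer dense fibre protein, was at 6201 CPM in elongating and 1992 CPM in round spermatid barcodes at 763.2 h (3.11-fold, 3.08 to 3.15), and at 3674 and 1826 CPM at 556.8 h. Akap4, the main scaffold of the fibrous sheath, was at 1704 and 393 CPM at 763.2 h and at 988 and 294 CPM at 556.8 h. Fscn3, a testis form of the actin bundler fascin, was at 198 and 8.95 CPM at 763.2 h and at 118 and 9.79 CPM at 556.8 h. In contrast to these, axoneme genes were lower in 17 of 28 at 763.2 h and 16 of 28 at 556.8 h, with 1 and 2 higher (median log2 -1.67 and -1.41). At 763.2 h that lower count was not far above the 52% over all genes. Both medians were below those of all genes, -1.07 and -0.63. The tektin Tekt2, a filament of the microtubule doublets, was at 160 CPM in elongating and 898 CPM in round spermatid barcodes at 763.2 h. Tppp2, which binds tubulin, was higher in both libraries, with 1214 and 118 CPM at 763.2 h (10.3-fold) and 693 and 83.7 CPM at 556.8 h (8.28-fold). Of 16 mitochondrial sheath genes 3 were higher in each library, and 8 and 6 lower (median log2 -1.17 and -0.69, near the -1.07 and -0.63 of all genes). Smcp, a cysteine-rich protein of that sheath, was at 10300 and 2486 CPM at 763.2 h (4.14-fold, 4.11 to 4.18) and at 5218 and 1806 CPM at 556.8 h, and Spata18, a mitochondrial quality control protein, at 1316 and 154 CPM and at 788 and 130 CPM.

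Head genes were divided as well. The shares over all measured genes were 13.5% higher and 52% lower at 763.2 h, and 17.9% and 38% at 556.8 h. Of the head shaping, manchette and perinuclear theca list, 8 of 26 were higher and 11 lower at 763.2 h, and 8 of 27 higher and 10 lower at 556.8 h. Spem1, needed to shed the spermatid cytoplasm, was at 704 CPM in elongating and 60.7 CPM in round spermatid barcodes at 763.2 h (11.6-fold, 11.1 to 12.2), and at 387 and 51.1 CPM at 556.8 h. Actrt3, an actin-related protein of the sperm head, was at 72.7 and 16.8 CPM at 763.2 h (4.31-fold) and at 398 and 32.5 CPM at 556.8 h (12.2-fold). Ccin, the calicin of the perinuclear theca, was at 84.5 and 117 CPM at 763.2 h, but at 441 and 102 CPM at 556.8 h (4.33-fold). Acrosome and gamete fusion genes were lower in 19 of 25 at 763.2 h and 16 of 25 at 556.8 h, with 3 higher in each (median log2 -2.12 and -1.40). The round spermatid barcodes were chosen by high levels of markers that include acrosomal genes such as Acrv1. That choice favours a lower acrosome list in elongating spermatids, even with the markers left out, and its part was not tested. Spam1, the sperm hyaluronidase, was at 29.5 and 239 CPM at 763.2 h and at 9.00 and 191 CPM at 556.8 h. Gsg1, a germ cell protein counted with the acrosome list, was higher, with 7128 and 1632 CPM at 763.2 h and 3904 and 1429 CPM at 556.8 h.

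Single kinase, fuel enzyme and ubiquitin genes were much higher, but their lists were mixed. Of all measured genes 13.5% were higher and 52% lower at 763.2 h, and 17.9% and 38% at 556.8 h. Tssk6, a testis serine kinase needed for chromatin condensation, was at 2459 CPM in elongating and 198 CPM in round spermatid barcodes at 763.2 h (12.4-fold, 12.1 to 12.8), and at 1351 and 128 CPM at 556.8 h (10.6-fold, 9.70 to 11.6). Among 17 measured kinases and phosphatases 4 were higher in each library, and 7 and 5 lower. Gapdhs, the sperm form of a glycolysis enzyme, was at 4283 and 846 CPM at 763.2 h and at 2286 and 644 CPM at 556.8 h. Oxct2a, a ketone body enzyme with the near-identical copy Oxct2b, was at 595 and 19.6 CPM and at 491 and 24.96 CPM. Of 25 energy metabolism genes 6 were higher and 11 lower at 763.2 h, and 4 higher and 7 lower at 556.8 h. At 556.8 h the higher count was near the share over all genes. Of the ubiquitin, proteasome and autophagy list, 7 of 25 were higher and 5 lower at 763.2 h, and 8 of 26 higher and 4 lower at 556.8 h. Ubl4b, a testis ubiquitin-like protein, was at 2682 and 436 CPM at 763.2 h and at 1520 and 342 CPM at 556.8 h. Dnajb8, a testis co-chaperone, was at 2400 and 287 CPM at 763.2 h and at 1252 and 222 CPM at 556.8 h, in a heat shock and chaperone list with 4 of 20 higher and 8 lower at 763.2 h, and 5 higher and 6 lower at 556.8 h.

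By the naming rule, which takes genes whose interval lay beyond 2-fold in both libraries, 358 genes qualified as higher and 934 as lower. The 8 leading ones were Cby3, Car2 (a carbonic anhydrase), Agpat2 (an acyltransferase of phospholipid synthesis), Klk1b8 (a kallikrein, with similar copies), Defb33 (a beta-defensin), Col20a1 (a collagen chain), Odf3b and Apoe (an apolipoprotein). Cby3 was at 374 CPM in elongating and 5.02 CPM in round spermatid barcodes at 763.2 h (74.5-fold, 64.1 to 87.0), and at 278 and 7.34 CPM at 556.8 h (37.9-fold). Car2 was at 1021 and 26.9 CPM at 763.2 h (38.0-fold) and at 505 and 16.4 CPM at 556.8 h (30.8-fold). Apoe was at 196 and 6.35 CPM at 763.2 h (30.9-fold) and at 102 and 2.69 CPM at 556.8 h (37.8-fold). The 4 lowest were Itgad, an integrin chain, with 9.76 and 112 CPM at 763.2 h and 3.17 and 110 CPM at 556.8 h, Pole2, a DNA polymerase subunit, with 4.83 and 59.3 CPM at 763.2 h, Spdye4c with 6.23 and 69.3 CPM, and the kinase gene Tssk5 with 5.58 and 60.8 CPM. The sizes of the higher ratios changed with the weighting and depth of barcodes and with the limit on the 4 genes: with every barcode weighted alike Cby3 was 20.8-fold and 13.9-fold higher at 763.2 and 556.8 h, and with barcodes of at least 5000 UMIs 164-fold higher at 763.2 h. With at least 10% of UMIs in the 4 genes, at 556.8 h Cby3 was 21.1-fold, Car2 12.6-fold and Odf3b 10.2-fold higher. That setting also let round spermatid barcodes hold up to under 10%, so both classes of the ratio changed.

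The comparison between the times was made within rich spermatids, since depleted ones were seen at 763.2 h and not at 556.8 h. Of 4612 measured genes 53 were at least 2-fold higher at 763.2 h (1.15%) and 553 lower (12%), around a median log2 ratio of -0.24. Over all late spermatids the counts were 63 higher (1.36%) and 737 lower (15.9%) of 4635. The genes qualifying by the naming rule, applied here to rich spermatids alone, were 17 higher and 191 lower. Required in both early and late spermatids, as first planned, the rule gave 0 higher and 0 lower. Mbd2, a reader of methylated DNA, was at 154 CPM at 763.2 h and 24.8 CPM at 556.8 h (6.24-fold, 5.53 to 7.06). Mex3d, an RNA-binding protein, was at 1254 and 310 CPM (4.04-fold), Usp12, a deubiquitinase, at 345 and 103 CPM, and Psme4, the proteasome activator linked to histone removal, at 246 and 79.7 CPM (3.09-fold, 2.86 to 3.33). The others among the 10 leading ones, Papd5, Znrf2, Eif1ax, Cgnl1, Lars2 and Fsip1, were 2.75-fold to 4.38-fold higher and under 170 CPM in either library.

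Among the 10 genes lowest at 763.2 h against 556.8 h, Cst13, a cystatin, was at 254 CPM at 763.2 h and 1260 CPM at 556.8 h (0.202-fold), Hemgn at 159 and 747 CPM, Fam71b at 144 and 726 CPM, Tuba8, a tubulin, at 145 and 693 CPM, Prss52, a serine protease, at 170.0 and 738 CPM, and Dcdc2c, a doublecortin-domain protein, at 14.3 and 96.0 CPM (0.149-fold). Faiml, Slc17a7, Tbx5 and Dusp21 completed the 10 lowest, each under 250 CPM in both. Among 25 head shaping genes 0 were higher and 3 lower, the same share as the 12% over all genes, with Actrt3 at 93.1 CPM at 763.2 h and 398 CPM at 556.8 h (0.234-fold, 0.216 to 0.252) and Ccin at 107 and 442 CPM (0.243-fold). Cypt4, of the multicopy cysteine-rich perinuclear theca family, was at 1065 and 3432 CPM (0.310-fold), in a list of 9 measured multicopy and sex-linked genes with 0 higher and 2 lower. Prss37, needed for the sperm to reach the egg, was at 155 and 496 CPM, and Calr3, a testis calreticulin that chaperones sperm surface proteins, at 189 and 612 CPM. Of the 24 measured ubiquitin and proteasome genes 2 were higher and 0 lower, and of the 26 acrosome genes 1 was higher and 1 lower. Sertoli markers, from the cells that enclose spermatids, were also lower: 3 of 6 measured, Clu among them, and their part in the result was not tested. With both libraries held to a protamine share of 55% to under 65%, 54 genes were higher and 488 lower.

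Within the 763.2 h library, depleted spermatids were set against rich ones (158 and 638 barcodes, 1487779 and 7994230 UMIs outside the 4 genes). More genes were lower than higher: 55 of 4224 measured genes were at least 2-fold higher (1.3%) and 942 lower (22.3%), around a median log2 ratio of -0.19. By the naming rule 3 genes qualified as higher and 332 as lower. The 3 were Oaz3, an ornithine decarboxylase antizyme of the sperm tail, with 4489 CPM in depleted and 2002 CPM in rich spermatids (2.24-fold, 2.18 to 2.31), Tssk6 with 4249 and 2057 CPM (2.07-fold, 2.01 to 2.13), and Bri3bp with 240.0 and 96.9 CPM (2.48-fold). Hmgb4 was at 498 CPM in depleted and 6900 CPM in rich spermatids (0.0722-fold, 0.0670 to 0.0776). Among the other lowest ones, Fam71f1 was at 34.3 and 768 CPM, Spcs2, a signal peptidase subunit, at 116 and 1617 CPM, Efcab3 at 27.6 and 396 CPM, Cypt1 at 63.9 and 794 CPM, Dnajc9, a co-chaperone of histones, at 25.5 and 304 CPM, Tex37 at 130 and 1289 CPM, and Cdyl, a chromodomain protein of spermatid chromatin, at 33.6 and 378 CPM. Gramd2 had 0 UMIs in depleted spermatids and 424 in rich ones. Tssk6 was under 2-fold in 3 other settings, 1.93-fold with barcodes of at least 5000 UMIs, 1.84-fold with at least 6000 and 1.89-fold with at least 10% of UMIs in the 4 genes. With at least 6000 UMIs Oaz3 was 2.05-fold (1.985 to 2.11) and Bri3bp 2.10-fold (1.82 to 2.41) higher, with neither interval wholly beyond 2-fold.

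**Figure D4:**
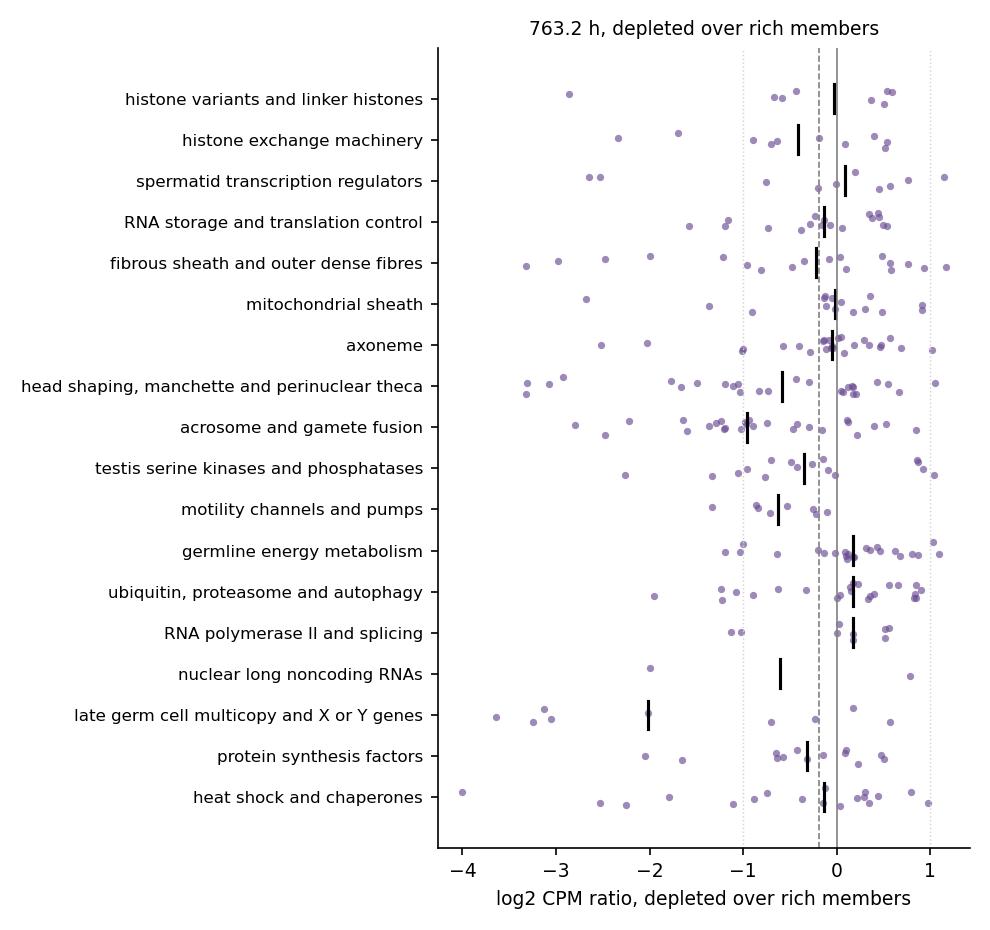
Log2 CPM ratio of depleted over rich spermatids at 763.2 h (horizontal axis) of each measured gene (points) of each list (rows), with list medians as bars, the median of all measured genes as a dashed line at -0.19 and 2-fold as dotted lines. The median of the multicopy and sex-linked list lies farthest left, at -2.02, and that of the acrosome list at -0.96.

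Read by structure, head genes were among those lower in depleted spermatids and tail genes were mixed. Over all measured genes 1.3% were higher and 22.3% lower. Of 26 acrosome genes 0 were higher and 11 lower (median log2 -0.96), and of 26 head shaping genes 1 was higher, Spem1 with 1219 and 587 CPM, and 11 lower (median -0.58). Among spermatids with at least 10% of UMIs in the 4 genes the acrosome median was -0.34, against -0.96 for all. Actrt3 was at 9.41 CPM in depleted and 93.1 CPM in rich spermatids (0.101-fold), Ccin at 12.8 and 107 CPM, and Galntl5, an acrosomal glycosyltransferase, at 302 and 1688 CPM. Of 9 multicopy and sex-linked genes 0 were higher and 5 lower, all 5 of them Cypt genes. Of 18 fibrous sheath genes 1 was higher, Oaz3, and 5 lower, among them Akap3, a scaffold of the fibrous sheath, with 37.6 and 296 CPM, Ropn1 with 372 and 2069 CPM and Spag4, a nuclear envelope protein that anchors the tail, with 65.9 and 657 CPM. In the axoneme list 1 of 25 was higher and 3 lower (median log2 -0.05). In the mitochondrial sheath list 0 of 15 were higher and 2 lower (median -0.02). Some fibre, sheath and energy metabolism genes were higher in depleted spermatids by under 2-fold: Odf2 1.499-fold, Akap4 1.48-fold, Smcp 1.88-fold and Gapdhs 1.60-fold. Hils1 was at 327 and 2380 CPM (0.137-fold), whereas H1fnt was at 0.742-fold. Phf7, a ubiquitin ligase of histones, was at 479 and 2426 CPM, and Chd5, a remodeler needed for histone removal, at 148 and 481 CPM. Hsph1, a heat shock protein, was at 5.38 and 86.4 CPM. Of 79 ribosomal protein genes 17 were lower and 0 higher (median log2 0.04), near the 22.3% lower over all measured genes. Of the round spermatid markers 6 of 13 were lower, and of 8 pachytene spermatocyte markers 1 was higher and 0 lower.

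**Figure D5:**
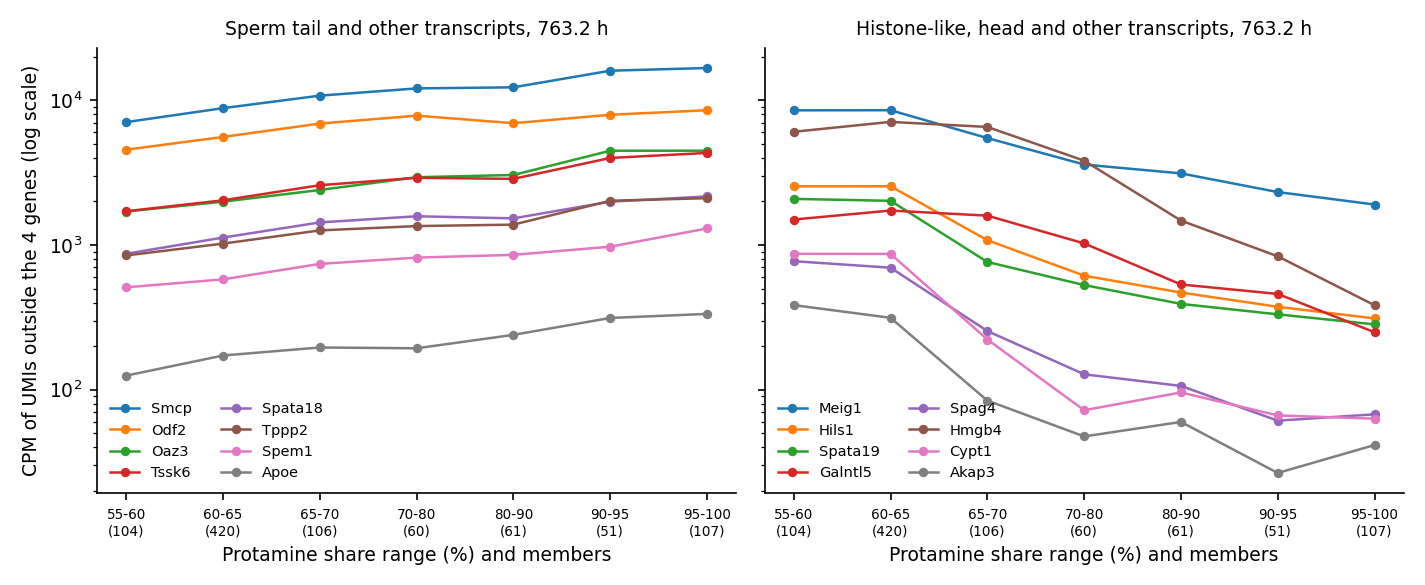
Level of single genes (vertical axis, log scale, CPM of UMIs outside the 4 genes) in summed spermatids of the 763.2 h library grouped by protamine share (horizontal axis, percent, with the number of spermatids). The genes were chosen after their values were seen. Hils1, Hmgb4, Cypt1 and Spag4 are lower at 95% or more than under 65%, and Smcp, Tssk6 and Spem1 higher.

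Along the ranges of protamine share at 763.2 h, Hils1 stood at 2549 CPM at 60% to under 65%, 1080 at 65% to under 70% and 311 at 95% or more. Hmgb4 stood at 7102, 6553 and 384 CPM in the same ranges, and at 3832 CPM at 70% to under 80%, as the plot of single genes by protamine share shows. Galntl5 was at 1732, 1596, 1026 and 249 CPM in those 4 ranges taken in order of protamine share. H1fnt was highest at 70% to under 80%, with 3790 CPM, and stood at 2145 CPM at 95% or more. Smcp stood at 7079 CPM at 55% to under 60% and 16754 CPM at 95% or more, Tssk6 at 1713 and 4333 CPM, Tppp2 at 847 and 2109 CPM, and Spem1 at 510 and 1302 CPM. Since CPM is a share of the RNA outside the 4 genes, the loss of some RNAs raises the CPM of others, and a rise of some lowers it. A change in amount per cell cannot be told apart from this.

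Markers of other cells were low in the spermatids but did not all vanish. The summed level of 17 Sertoli markers was 162 CPM in elongating and 158 CPM in round spermatid barcodes at 763.2 h, and 298 and 59.2 CPM at 556.8 h, where all 6 measured markers were at least 2-fold higher. Leydig and red blood cell markers summed to under 2 CPM. Of 9 macrophage markers only Apoe and C1qb were measured, both higher in spermatids of both libraries. C1qb was at 41.4 and 3.47 CPM at 763.2 h and at 23.6 and 2.69 CPM at 556.8 h, while C1qa had 1 UMI in the spermatids of each library and Csf1r and C1qc 0 at 763.2 h. Pachytene markers summed to 387 and 985 CPM at 763.2 h and to 466 and 1152 CPM at 556.8 h. Genes of the X chromosome held 1.85% of UMIs outside the 4 genes in elongating and 1.24% in round spermatid barcodes at 763.2 h, and 2.14% and 1.22% at 556.8 h, and genes of the Y chromosome 0.0188% and 0.0740%, and 0.0289% and 0.0744%. Spermatids of under 6000 UMIs, 320 at 763.2 h and 408 at 556.8 h, had Acrv1 at 283 CPM at 763.2 h, against 79.3 CPM in deeper ones, and Malat1 at 2141 and 298 CPM. At 556.8 h Acrv1 was at 152 CPM in those under 6000 UMIs and 146 CPM in deeper ones, nearly the same level, and Malat1 at 1067 and 516 CPM.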

How the data were processed

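Single-cell suspensions of synchronized mouse whole testis were profiled in droplets, 1 library a time, and the time of each library was taken from its title. The deposited matrices hold raw UMI counts for 27998 features per barcode, and per the file headers Cell Ranger 3.0.2 wrote them. The submitters' processing notes list Seurat 4.3.0.1 and mm10, with no role for either. How reads were aligned and cells called is not given in the sources used. The 763.2 h library held 116745642 UMIs in 11987 barcodes and the 556.8 h library 118147393 in 9301. The lowest barcodes held 1821 and 2443 UMIs, so the minimum of 1000 UMIs removed none there.

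The members, the 28 gene lists and the way genes are named were chosen with earlier results of these data known. Round spermatid barcodes had under 5% of UMIs in the 4 genes, at least 5 UMIs and 0.2% of UMIs of round spermatid markers, and at most 0.5 times as many UMIs of pachytene markers. In alternatives with another limit on the 4 genes, that limit bounded the round spermatid barcodes too. UMIs were summed over the barcodes of a class and given as CPM of the counts outside the 4 genes, so deep barcodes weigh more. Ratios have exact 95% intervals from the conditional binomial distribution, shares exact binomial (Clopper-Pearson) ones. In log2 values 3 counts stand for 0. Named genes needed 50 UMIs and 50 CPM in the higher class and an interval wholly beyond 2-fold in both parts of the comparison, ranked by the bound nearest 1. For depleted over rich spermatids, which have 1 library, and for rich spermatids between the times, the rule used that 1 comparison. Haemoglobin, mitochondrial and ribosomal protein genes were not named, nor were predicted models: of the models, 106 were higher and 149 lower against round spermatids, 2 and 39 between the times, and 1 and 85 in depleted spermatids. Examples from lists were picked after their values were seen. Likely doublets were scored, by the Scrublet method of scanpy 1.11.5 at an expected rate of 0.08, and kept. The comparison code was tested on simulated data. Alternatives were minimums of 2000 and 5000 UMIs, other limits for mitochondrial UMIs, for the 4 genes and for measured genes, CPM of all UMIs, equal weight per barcode, barcodes with a Scrublet score of at least 0.25 left out, and spermatids with a protamine share of 40% to 60% left out. The rich and depleted ranges, the comparison at matched protamine share and the values for at least 6000 UMIs were added after seeing the data.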

Additional observations from a re-analysis of the deposited data

Results flagged for a closer look

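The 350.4 h library, which no comparison uses, held 10 barcodes that met the rule for elongating spermatids, of 4854 that passed (0.206%, 95% exact binomial interval 0.0988 to 0.379). They drew attention because the 0 and 144 h libraries held 0, with exact upper bounds of 0.0463% and 0.0547%. Their median depth was 4854 UMIs, the 4 genes made up 5.39% to 22.6% of their UMIs (median 12.9%), and all 10 were late, with a protamine share of 60.01%.

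For 5 genes the ratio of elongating over round spermatid barcodes pointed in opposite directions in the 2 libraries, each by at least 2-fold. They were 4931428F04Rik at 0.452 at 763.2 h and 2.34 at 556.8 h, Chrne, a subunit of the acetylcholine receptor, at 0.491 and 2.498, Adam6a, a testis member of the ADAM family, at 0.462 and 2.18, 1700056N10Rik at 0.439 and 2.13, and Rnf151, a RING finger protein, at 0.465 and 2.03. No gene had both intervals wholly beyond 2-fold, and the difference between the libraries was not tested.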

How the results depend on the processing

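No paired analysis was possible because each time had 1 library. Counting error is the only error that could be given. Under the alternatives run, no ratio of a named gene and no list median beyond 2-fold changed direction, and 485 of 647 gene values, 734 of 756 list medians and 83 of 134 shares and counts stayed close to the values reported (within the 95% interval for genes and shares, 0.5 on the log2 scale for lists and 1.5 times for counts). Where values moved, the cause was not tested. The share of spermatids among passing barcodes was 8.83% at 763.2 h with at least 2000 UMIs. With at least 5000 UMIs it was 18.4% at 763.2 h and 11.9% at 556.8 h, which turns the order of the times round, with under 10% mitochondrial UMIs 8.91% and 12.4%, with at least 3% of UMIs in the 4 genes 14.04% and 14.34%, and with at least 10% 6.17% and 8.21%. The late share was 100% in both libraries with at least 5000 UMIs, with at least 10% in the 4 genes, and without protamine shares of 40% to 60%. In these 3 settings no early spermatid was left, so their comparisons gave no value. It was 98.5% at 556.8 h with at least 3%.

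The counts that use early spermatids are shaped by their few UMIs. Genes higher in late spermatids of both libraries numbered 28 with at least 2000 UMIs, 209 with at least 3% and 24 as CPM of all UMIs. Lower ones numbered 18 with at least 3%, 1 as CPM of all UMIs and 382 with no minimum beyond 1 UMI. Genes higher at 763.2 h in early and in late spermatids numbered 1 with at least 3%, with equal weight per barcode and without high Scrublet scores, and 14 with no minimum. Lower ones numbered 3 with at least 2000 UMIs, 25 with at least 3%, 2 as CPM of all UMIs, with equal weight and without high Scrublet scores, 0 with a minimum of 50 UMIs and 50 CPM, and 24 with no minimum.

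Against round spermatids, lower genes numbered 1238 with 50 UMIs and 50 CPM and 4487 with no minimum, and higher ones 1412 with no minimum. In rich spermatids, genes higher at 763.2 h numbered 29 as CPM of all UMIs, 98 with equal weight, 27 with 50 UMIs and 50 CPM and 848 with no minimum. Lower ones numbered 323 with at least 3%, 957 with at least 10%, 329 with 50 UMIs and 50 CPM and 3373 with no minimum. Genes higher in depleted spermatids numbered 32 with at least 10%, 160 with equal weight, 27 with 50 UMIs and 50 CPM, 1320 with no minimum and 93 with rich under 65% and depleted at least 95%. Lower ones numbered 604 with 50 UMIs and 50 CPM and 2449 with no minimum.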
